A study of Mus musculus with 12 samples.

Results

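Hair follicle growth is directed by a small set of signals and transcription factors, of which 10 were followed across mouse skin libraries: Shh, Wnt10b, Fgf5, Bmp4, Lef1, Msx2, Dlx3, Hoxc13, Foxn1 and Gata3. They were taken from the table by symbol, from a list drawn up with earlier results of these data known, and make up 10 of the 52636 genes in the count table. RNA-seq was carried out on full-thickness back skin of C57BL/6 mice (C57BL/6J in the study's methods), 3 months of age by the labels, with 4 groups and 3 mice in each (12 libraries). WT mice received a vehicle, saline thickened with hydroxypropyl methylcellulose, on shaved skin, and Cdc42 KO mice received the same vehicle. The remaining groups, labelled WT+ZnO NPs and KO+ZnO NPs, received zinc oxide nanoparticles in that vehicle for 14 days. In KO mice Cre driven by the K5 promoter deletes a floxed Cdc42, a small GTPase, in basal keratinocytes and their descendants, follicle epithelium included, while dermal, immune and pigment cells keep the gene.

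Hair follicles pass through growth (anagen), regression and rest (telogen). At the start of growth WNT and SHH signals pass between the dermal papilla and the follicle epithelium, and BMP signals keep resting stem cells quiet and later direct the differentiation of matrix cells. FGF5 made in the outer root sheath ends the growth phase, and homeodomain, forkhead and GATA factors control how matrix cells become hair shaft and inner root sheath.

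Library totals lay between 21076320 and 28867802 counts. Levels are given as CPM, a gene's counts relative to the library total, scaled by edgeR's TMM factors. In whole skin, fewer cells of a type and less RNA per cell cannot be told apart. Cdc42 itself was at 606 to 628 CPM in WT, 415 to 464 in KO, 311 to 350 in libraries with the WT+ZnO NPs label and 314 to 453 in those labelled KO+ZnO NPs. Libraries with the WT+ZnO NPs label therefore held no more Cdc42 transcript than the KO libraries, against their label, and every direction drawn from them below is one of libraries so labelled. Transcripts of 4 Y-linked genes summed to 215 to 245 CPM (before TMM scaling) in all 3 libraries labelled WT+ZnO NPs, in KO replicate 1 and in KO+ZnO NPs replicate 1, and to at most 0.0452 CPM in the other 7 libraries. The study describes its KO mice as female. Sex and ZnO NP exposure cannot be told apart between the WT and WT+ZnO NPs labels. KO+ZnO NPs replicate 2 also stood apart in its adipocyte markers, which summed to 44.3 CPM there against 1620 and 1660 CPM in the other two libraries of its group.

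All 10 genes are protein coding, and all 10 passed the filter on low counts over the 12 libraries. Shh and Fgf5 passed it only through the ZnO NP groups, since neither was kept when KO and WT were fitted alone. In GRCm38 (mm10), Shh lies on chromosome 5 from 28456815 to 28467256 on the minus strand and Fgf5 lies on the same chromosome from 98254184 to 98277030 on the plus strand. Wnt10b (98770712 to 98778150, minus) and Hoxc13 (102921103 to 102928814, plus) are both on chromosome 15. Foxn1 (78357577 to 78386558, minus) and Dlx3 (95120119 to 95125296, plus) are both on chromosome 11. Lef1 is on chromosome 3 (131110471 to 131224356, plus), Msx2 on chromosome 13 (53466884 to 53473074, minus), Bmp4 on chromosome 14 (46383520 to 46390669, minus) and Gata3 on chromosome 2 (9857078 to 9890034, minus). Genes on the opposite strand overlap Shh, Lef1, Bmp4 and Gata3. Whether the counting used strand was not stated, so reads from such partners cannot be told apart from reads of these 4 genes.

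RefSeq promoter windows (GRCm38.p6, 250 bases before to 50 bases after a start) were found for 7 of the 10 genes, in 10 windows, since Lef1 has several starts. Shh, Hoxc13 and Dlx3 had no entry. The stretches before the starts of 2 signals (Wnt10b, Fgf5) and 2 transcription factors (Foxn1, Lef1) are shown because all 10 genes were called higher together in 1 comparison and several of them encode factors, or act through factors, that bind short motifs. Each runs 5′ to 3′ on the gene's strand and ends on the base before the RefSeq start, outside annotated exons. Capitals mark whole matches, on either strand, to any motif spelled out after the sequences. The Foxn1 stretch lies at chr11:78386609-78386858 (minus), the Fgf5 stretch at chr5:98253934-98254183 (plus), the Wnt10b stretch at chr15:98778151-98778400 (minus), and the Lef1 stretch at chr3:131156044-131156293 (plus), which is inside the Lef1 gene before an internal start.
Foxn1: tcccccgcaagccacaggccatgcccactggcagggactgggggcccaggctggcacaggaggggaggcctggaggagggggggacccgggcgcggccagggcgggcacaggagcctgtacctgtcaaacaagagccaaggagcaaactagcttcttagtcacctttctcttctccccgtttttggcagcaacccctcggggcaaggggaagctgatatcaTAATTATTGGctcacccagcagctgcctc
Fgf5: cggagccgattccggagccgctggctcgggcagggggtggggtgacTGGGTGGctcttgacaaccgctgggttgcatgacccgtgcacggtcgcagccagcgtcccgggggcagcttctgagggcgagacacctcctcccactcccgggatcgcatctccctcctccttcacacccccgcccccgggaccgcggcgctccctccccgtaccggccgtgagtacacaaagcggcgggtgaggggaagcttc
Wnt10b: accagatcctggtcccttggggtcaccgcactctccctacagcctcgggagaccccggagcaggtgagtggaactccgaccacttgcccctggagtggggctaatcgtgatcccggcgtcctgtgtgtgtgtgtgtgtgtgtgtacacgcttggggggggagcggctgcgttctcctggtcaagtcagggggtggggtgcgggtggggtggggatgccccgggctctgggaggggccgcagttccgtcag
Lef1: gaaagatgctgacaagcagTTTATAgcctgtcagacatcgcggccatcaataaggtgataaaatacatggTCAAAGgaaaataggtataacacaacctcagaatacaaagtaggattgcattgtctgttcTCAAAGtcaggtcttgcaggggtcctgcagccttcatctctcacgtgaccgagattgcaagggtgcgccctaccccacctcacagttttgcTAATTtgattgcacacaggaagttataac

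The Foxn1 stretch holds TAATT on both strands, overlapping a CCAAT box read on the minus strand. The Lef1 stretch holds the LEF1/TCF core at 2 places and a TATA box, all as the reverse complement, with a homeodomain core near the start. The other Lef1 windows, among them that of another start inside the gene, held none of the motifs searched. Fgf5 has a GLI element far from its start, and the Wnt10b stretch holds none of these motifs. Over the 10 windows the homeodomain core, searched as TAATT, was found in 3 (Lef1, Foxn1, Msx2), against 27.0% of all 32851 windows of the same length. The core bound by LEF1 and TCF factors, searched as CTTTGA, was found in 1 of the windows, that of the internal Lef1 start shown above, against 16.0% of all windows. The same Lef1 window alone held the GATA element, searched as AGATAA, just after the start (11.2% of all windows). The element of the SHH effectors of the GLI family, searched as CCACCCA, was found in the windows of Fgf5 and Gata3, 2 of 10, against 9.3%. The CCAAT box, searched by those letters, was found in 2 of 10, those of Foxn1 and Msx2, against 37.4%. The TATA box, searched as TATAAA, was found in 2 of 10, those of Lef1 and Fgf5, against 13.6%. A match describes these letters only.

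In skin labelled WT+ZnO NPs every one of the 10 genes was higher than in WT, by 2.56-fold (Bmp4) to 178-fold (Shh, on at most 8 WT counts). In KO against WT all 10 means were also higher, and 5 of the genes, Shh, Lef1, Msx2, Hoxc13 and Gata3, passed the test, Shh among them only because the ZnO NP libraries kept it in the fit. Within KO mice, ZnO NPs gave no call in any of the 10. The tests are edgeR's quasi-likelihood test over 18822 genes with Benjamini-Hochberg adjustment, called at an adjusted p below 0.05. With 3 mice a group the exact two-sided permutation test of 1 gene cannot go below 0.1, the value it gives where 2 groups do not overlap.

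**Figure D1:**
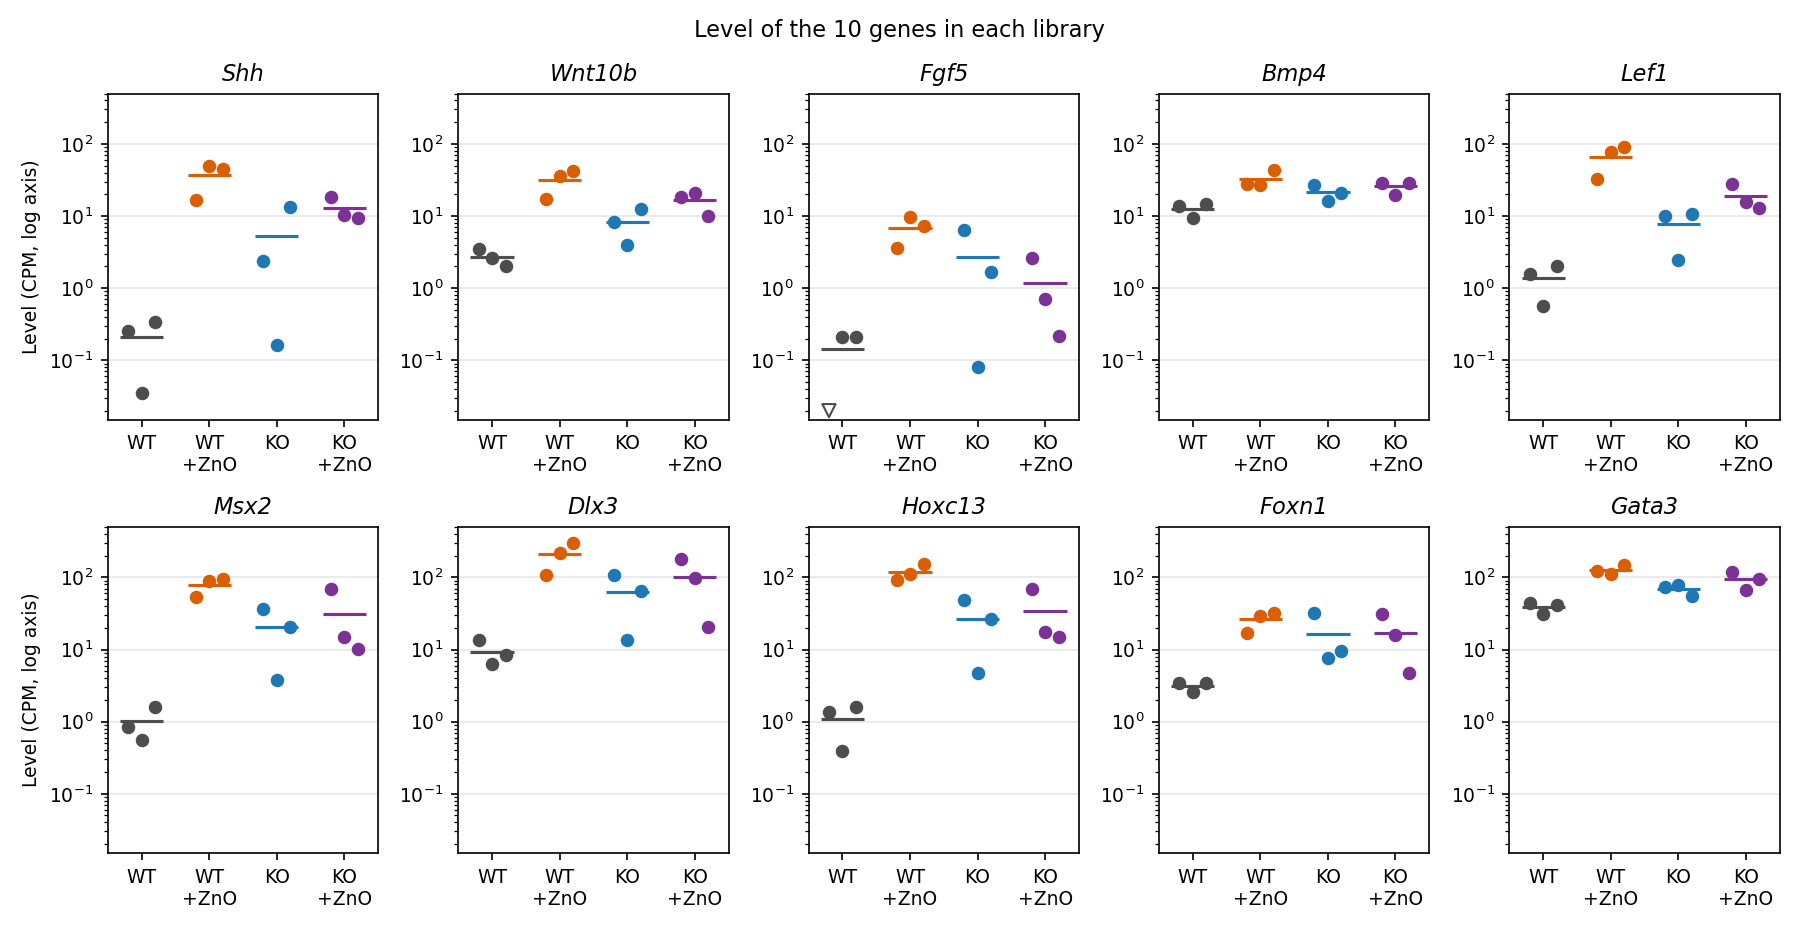
Level of each gene in CPM (log axis) in every library of the 4 groups, with a bar at the group mean; an open triangle marks the WT library with 0 Fgf5 counts. The 3 libraries labelled WT+ZnO NPs lie above all 3 WT libraries for every gene, while the KO and KO+ZnO NPs libraries spread widely for most genes.

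Shh, the hedgehog ligand that the follicle epithelium sends out to drive its own downgrowth, stood at 0.252, 0.0351 and 0.34 CPM in the WT libraries (6, 1 and 8 counts), a few reads per library. In libraries with the WT+ZnO NPs label it stood at 16.6, 48.98 and 45.3 CPM, all far above WT, a log2 fold change of 7.48 ± 1.36 (SE; adjusted p = 0.00164). The KO libraries held 2.38, 0.161 and 13.2 CPM. KO replicate 2 fell inside the WT range, so the groups overlapped although the gene was called (4.66 ± 1.28, adjusted p = 0.0489), and with KO and WT fitted alone Shh had too few counts to be tested. The libraries labelled KO+ZnO NPs held 18.5, 10.3 and 9.41 CPM, which overlapped KO and did not differ from it past the threshold (1.28 ± 0.99, adjusted p = 0.396).

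Wnt10b, a WNT ligand of the growing follicle epithelium, stood at 3.53, 2.63 and 2.04 CPM in WT. It rose to 16.96, 36.05 and 41.97 CPM in libraries with the WT+ZnO NPs label, with no overlap (3.53 ± 0.49, adjusted p = 0.000352). Its KO values of 8.21, 4.02 and 12.3 CPM were all above WT, yet the difference missed the threshold (1.58 ± 0.47, adjusted p = 0.0608). With KO+ZnO NPs it stood at 18.6, 21.1 and 10.02 CPM, overlapping KO only through its lowest library (1.02 ± 0.45, adjusted p = 0.145).

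Fgf5, the signal that ends anagen, also had few reads in WT. WT libraries held 0, 6 and 5 counts, or 0, 0.211 and 0.212 CPM, against 3.56, 9.55 and 7.2 CPM in libraries with the WT+ZnO NPs label (5.51 ± 1.43, adjusted p = 0.0107). KO values ran from 0.0803 CPM in replicate 2, below 2 of the WT libraries, through 1.67 to 6.38 CPM in replicate 1, and the difference from WT was not called (4.19 ± 1.39, adjusted p = 0.0879). With KO+ZnO NPs Fgf5 stood at 2.62, 0.705 and 0.218 CPM, all under the lowest library labelled WT+ZnO NPs. It was the only one of the 10 whose fitted value was lower in KO+ZnO NPs than in KO (-1.19 ± 1.15, adjusted p = 0.504), a difference that was not called.

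Bmp4, the BMP ligand of the dermal papilla and of the precursors of the shaft, had the smallest fold of the 10 in both comparisons with WT. It stood at 13.9, 9.3 and 14.9 CPM in WT and at 27.7, 26.6 and 43.2 CPM in libraries with the WT+ZnO NPs label, with no overlap (1.36 ± 0.27, adjusted p = 0.0029). KO libraries at 26.6, 16.2 and 20.96 CPM all lay above WT without passing the threshold (0.74 ± 0.27, adjusted p = 0.114). KO+ZnO NPs libraries at 29.1, 19.5 and 29 CPM overlapped both KO and libraries with the WT+ZnO NPs label.

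Lef1, the transcription factor through which WNT signals act in matrix and precortex cells, was at 1.55, 0.562 and 2.0 CPM in WT. It reached 32.5, 77.5 and 89.5 CPM in libraries with the WT+ZnO NPs label, with the lowest adjusted p of the 10 genes in that comparison (5.61 ± 0.71, adjusted p = 0.000197). KO values of 9.87, 2.45 and 10.7 CPM lay above all WT values (2.49 ± 0.64, adjusted p = 0.0405). With KO+ZnO NPs it stood at 27.8, 15.7 and 13.0 CPM, above every KO library and below every library labelled WT+ZnO NPs. Neither difference was called by edgeR (1.3 ± 0.59, adjusted p = 0.151 against KO; -1.82 ± 0.59, adjusted p = 0.0949 against WT+ZnO NPs), and DESeq2 called the second (adjusted p = 0.0186).

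Msx2 and Hoxc13, homeodomain factors of the matrix and shaft, ran almost in parallel. Msx2 went from 0.839, 0.562 and 1.61 CPM in WT to 54.2, 88.7 and 96.3 CPM in libraries with the WT+ZnO NPs label (6.32 ± 1.02, adjusted p = 0.000843). Hoxc13, which controls hair keratin genes, went from 1.34, 0.386 and 1.57 CPM to 92.3, 112.3 and 155.2 CPM (6.78 ± 1.01, adjusted p = 0.000507). Neither gene overlapped between those groups. In KO, Msx2 stood at 36.7, 3.82 and 20.3 CPM (4.34 ± 0.96 over WT, adjusted p = 0.0233) and Hoxc13 at 48.5, 4.78 and 26.3 CPM (4.61 ± 0.93, adjusted p = 0.0161), the strongest call of the 10 in that comparison. For both genes KO replicate 2 was the low library, yet still above every WT library. With KO+ZnO NPs, Msx2 at 68.2, 14.8 and 10.1 CPM and Hoxc13 at 69.4, 17.6 and 14.7 CPM overlapped KO, and Hoxc13 lay below all libraries labelled WT+ZnO NPs (-1.82 ± 0.78, adjusted p = 0.182).

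Dlx3, a homeodomain factor of matrix, shaft and inner root sheath, had the highest mean level per length of the 10 genes in every group but WT. It stood at 13.4, 6.32 and 8.33 CPM in WT and at 107.8, 215.3 and 304.0 CPM in libraries with the WT+ZnO NPs label, without overlap (4.48 ± 0.9, adjusted p = 0.00276). KO libraries held 106.3, 13.7 and 65.7 CPM, so replicate 2 was only just above the highest WT library, and the difference was not called (2.73 ± 0.83, adjusted p = 0.0685). KO+ZnO NPs libraries at 179.8, 99.2 and 20.4 CPM covered most of the KO range.

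Foxn1, the forkhead factor missing in nude mice and needed for shaft keratinisation, stood at 3.44, 2.56 and 3.48 CPM in WT, the narrowest spread of the 10 genes in WT on the log2 scale (SD 0.244). It rose to 16.96, 29.2 and 32.4 CPM in libraries with the WT+ZnO NPs label (3.05 ± 0.7, adjusted p = 0.00563). KO replicate 1 matched those at 31.7 CPM, while replicates 2 and 3 held 7.71 and 9.42 CPM, and the difference from WT was not called (2.36 ± 0.68, adjusted p = 0.0569). KO+ZnO NPs libraries ran from 4.7 to 30.9 CPM, a range that holds all but the highest KO library, with almost no fitted difference (0.07 ± 0.64, adjusted p = 0.952).

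Gata3, a factor of the inner root sheath that interfollicular epidermis and T cells also use, changed little in fold and varied little among mice. WT libraries held 43.6, 31.4 and 41.1 CPM, those labelled WT+ZnO NPs 123.0, 112.8 and 148.8 CPM and KO libraries 73.2, 78.2 and 55.1 CPM, with both groups above all WT libraries (1.73 ± 0.23, adjusted p = 0.000233; 0.83 ± 0.22, adjusted p = 0.0448). In KO+ZnO NPs it stood at 119.7, 67.3 and 93.7 CPM, overlapping both (0.44 ± 0.22 against KO, adjusted p = 0.187). A list of 9 T cell and innate lymphoid markers, from cells that also use Gata3 and Lef1, summed to 80.3 to 122 CPM in WT, 116 to 253 in KO, 51.8 to 63.1 with the WT+ZnO NPs label and 62.4 to 78.4 with the KO+ZnO NPs label, and none of the 9 was at 0 in a whole group. Of these 9, 3 were called higher in KO against WT, Tcf7 among them, and 8, all but Tcf7, were called lower in KO+ZnO NPs against KO. In WT+ZnO NPs against WT 3 were called lower and 1, Tcf7, higher (1.48 ± 0.25, adjusted p = 0.00108). Tcf7 stood at 8.85 to 13.9 CPM in WT and at 26.4 to 43.9 CPM with the WT+ZnO NPs label, a large part of the sum there. The part of these cells in the Gata3 and Lef1 values was not tested.

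**Figure D2:**
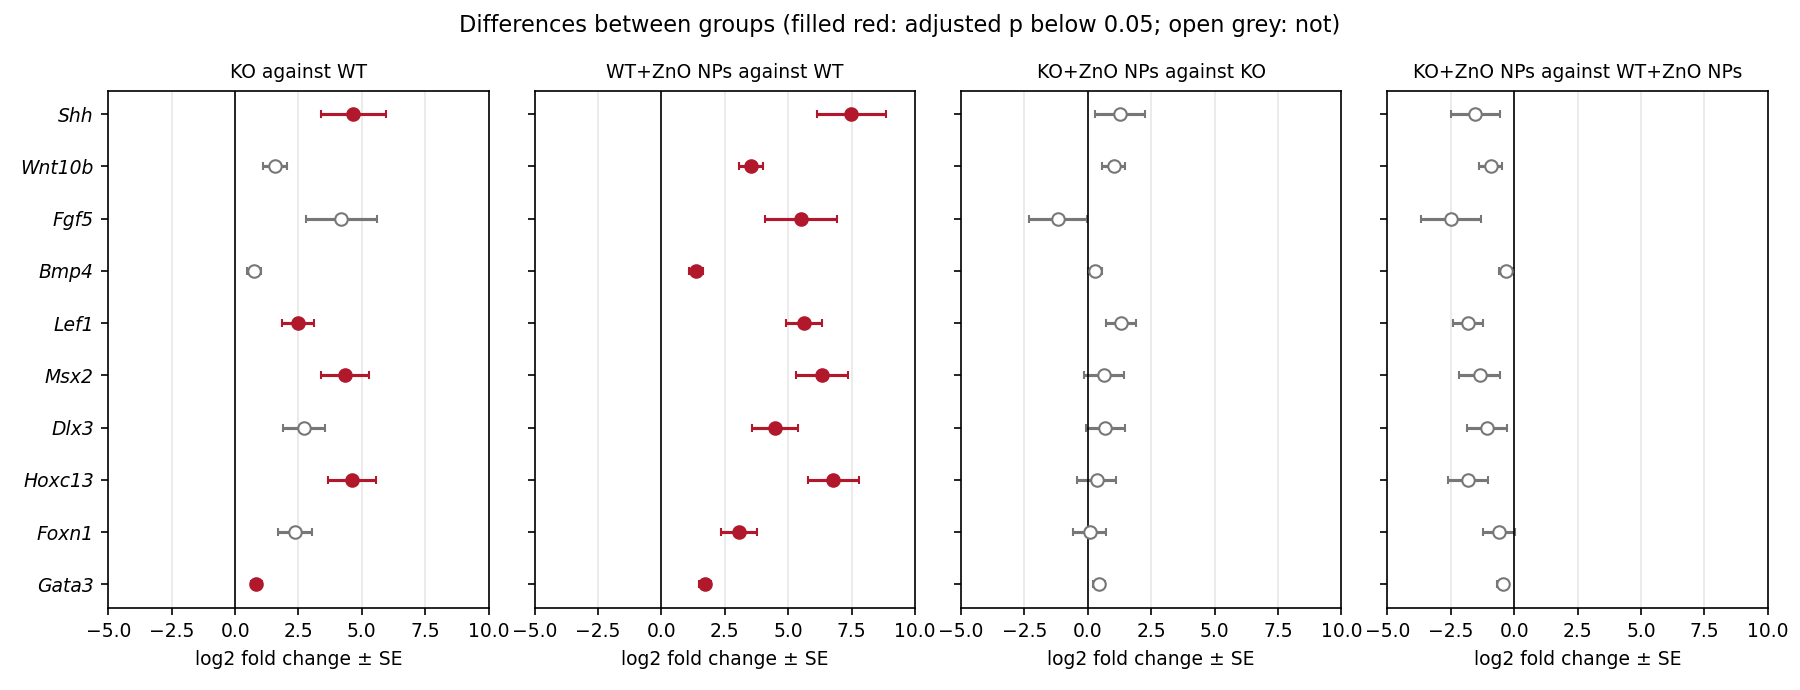
Fitted log2 fold change with its SE (x axis) for each gene (y axis) in 4 comparisons; filled red points have an adjusted p below 0.05. All 10 genes are filled in WT+ZnO NPs against WT and 5 in KO against WT, and none in either comparison of KO+ZnO NPs.

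Read against all genes, the 10 of 10 called higher in WT+ZnO NPs against WT stood beside 20.8% of the 18822 tested genes called higher and 22.1% called lower, and their 10 of 10 separated groups beside 30.1% of genes that separated upward. The median log2 fold change of the 10 was 5.0 against 0.06 over all genes. Shh and Fgf5 count in these figures although the filter kept them only through the ZnO NP groups, where they are high. Under the filter of at least 10 counts in every library 8 genes were tested, without these, and all 8 were called. Every leave-one-out fit called all 10. With Y-linked transcripts as a covariate 6 of 10 were called, Foxn1, Dlx3, Fgf5 and Bmp4 no longer passing, and in that fit the covariate can draw only on the KO and KO+ZnO NPs groups, where replicate 1 alone carried such transcripts.

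In KO against WT, 5 of 10 were called higher and none lower, against 4.61% and 3.58% of all genes. Among the 10, 8 separated upward, Shh and Fgf5 being the exceptions, against 18.6% of genes, and the median log2 fold change was 2.61 against 0.01. The count of calls moved with single libraries: it was 0 without WT replicate 1, 2 or 3, 1 (Hoxc13) without KO replicate 1 or 3, 2 or 3 without a library labelled WT+ZnO NPs, and 7 without KO replicate 2, where 9 of the 10 were lowest. The fitted differences kept their direction in these fits, at 3.83 to 5.11 for Hoxc13, 3.59 to 4.85 for Msx2, 2.61 to 5.25 for Shh, 2.1 to 2.93 for Lef1 and 0.7 to 0.97 for Gata3. With KO and WT fitted alone, 6 of the 8 genes kept were called. DESeq2 called 9, and 2 were called with the Y-linked covariate or with KO and KO+ZnO NPs replicate 1 left out together (Msx2 and Hoxc13 in both). With the covariate the other 3 stood at 4.68 (Shh), 2.2 (Lef1) and 0.71 (Gata3), against 4.66, 2.49 and 0.83 without it.

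ZnO NPs within KO mice gave 0 calls among the 10 by edgeR and 0 by DESeq2, against 6.57% of all genes called higher and 8.09% called lower. At an unadjusted p below 0.05 there were 2 (Lef1 and Wnt10b), beside 6140 of the 18822 genes. Only Lef1 separated the groups upward, as did 17.0% of all genes, and the median was 0.53 against 0.01. Between both ZnO NP groups, all 10 fitted values were lower in KO+ZnO NPs (-2.51 to -0.33, median -1.21 against 0.04), but edgeR called none, against 3.28% of all genes called in either direction. At an unadjusted p below 0.05 there were 2 (Lef1 and Hoxc13), beside 4667 of the 18822 genes. Lef1, Hoxc13 and Fgf5 separated downward, as did 10.8% of all genes.

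The interaction asks whether the change with ZnO NPs in KO differed from that in WT-labelled mice, on the log2 scale. It was negative for all 10 genes and called for 7, Shh, Lef1, Msx2, Hoxc13, Wnt10b, Fgf5 and Gata3, against 3.59% of all genes called lower and 5.08% called higher. The median was -4.05 against 0.02 over all genes, with Hoxc13 at -6.43 ± 1.21 (adjusted p = 0.0148). Foxn1, Dlx3 and Bmp4 missed the threshold (adjusted p from 0.0626 to 0.101), while DESeq2 called 9, Foxn1 and Dlx3 among them (adjusted p = 0.00819 and 0.00309), and Bmp4 was called with the replicate block (adjusted p = 0.0365). Since the interaction uses the same WT and KO libraries as the comparisons above, it is not an independent count. Shh and Fgf5, among the 7 called, were kept by the filter only through the ZnO NP groups. The edgeR count was 2, 1 and 3 without WT replicate 1, 2 and 3, 2 and 3 without KO replicate 1 and 3, 4 and 1 without WT+ZnO NPs replicate 2 and 3, 4 without KO+ZnO NPs replicate 3, and 0 with the Y-linked covariate.

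Mice of 1 group differed far more in these genes than in most others. In KO the SD of log2 CPM over 3 mice had a median of 1.36 over the 10 genes against 0.23 over all tested genes, and 7 of the 10 exceeded the value of 1.02 that 95% of genes stayed under. For KO+ZnO NPs the medians were 0.896 and 0.347, with 3 of 10 above the 95% value, and for WT they were 0.624 and 0.194, with 4 of 10 above it. Libraries with the WT+ZnO NPs label were more even, at 0.599 and 0.267 with 0 of 10 above. KO Shh (SD 2.9) and KO Fgf5 (SD 2.68) were the widest, and Gata3 and Bmp4 kept an SD of at most 0.416 in every group. Shh and Fgf5 had at most 8 and 6 counts in WT, and 4 and 2 in KO replicate 2. Counting error adds to such SDs, by an amount that was not tested, and the genes compared were not matched by level.

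The lowest library of each group was nearly shared among the genes, and the highest less so in WT and KO. KO replicate 2 was lowest of its group for 9 of 10, all but Gata3, where it was highest. KO+ZnO NPs replicate 1 was highest for 9 of 10 and replicate 3 lowest for 8. WT+ZnO NPs replicate 1 was lowest for 8 of 10, with Gata3 and Bmp4 lowest in replicate 2, and WT replicate 2 was lowest for 8 of 10. Expression of hair shaft and inner root sheath products was also uneven: the summed level of 19 such genes was 14900, 31.8 and 3860 CPM in the KO libraries and 10500, 6930 and 277 CPM in those labelled KO+ZnO NPs, so the KO and KO+ZnO NPs replicates lowest in most regulators were also lowest in shaft and sheath products.

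KO replicates 1 and 3 differed in which regulators they held. Replicate 1 was highest of KO for Msx2, Hoxc13, Foxn1, Dlx3, Fgf5 and Bmp4, and replicate 3 was highest for Shh, Lef1 and Wnt10b. Shh counts were 0.0491 of Hoxc13 counts in KO replicate 1 (56 to 1140) and 0.503 in replicate 3 (301 to 598). Fgf5 counts were 2.68 times Shh counts in KO replicate 1 (150 to 56) and 0.126 times in replicate 3 (38 to 301), while over libraries with the WT+ZnO NPs label this ratio ran only from 0.159 to 0.215. Msx2 counts were 0.758, 0.798 and 0.769 of Hoxc13 counts in KO, 0.587 to 0.789 with the WT+ZnO NPs label, 0.691 to 0.984 with the KO+ZnO NPs label and, on at most 38 counts, 0.625 to 1.45 in WT. KO replicate 2, low in most of these genes, had the lowest Shh to Hoxc13 ratio of the group, 0.0336 on 4 Shh counts, and with the KO+ZnO NPs label the Fgf5 to Shh ratio ran from 0.0231 to 0.141. KO replicate 1 was also the KO library with Y-linked transcripts, and the part of sex in these ratios was not tested.

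**Figure D3:**
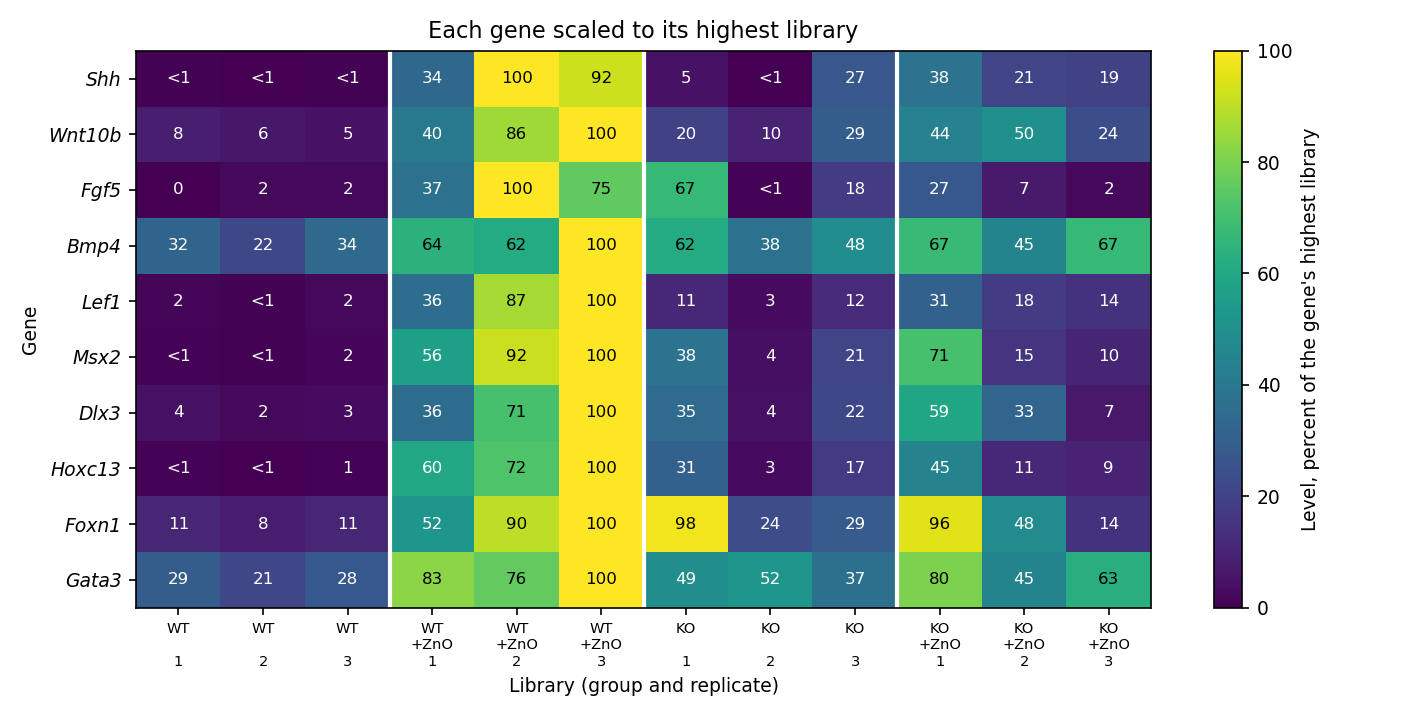
Level of each gene (rows) in each of the 12 libraries (columns) as a percent of that gene's highest library. WT columns stay at or below 34.4 percent, the 10 genes peak in WT+ZnO NPs replicates 2 and 3, and Foxn1 and Fgf5 reach 97.9 and 66.8 percent in KO replicate 1.

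Per kilobase of exon, which allows genes to be compared, Dlx3 had the highest mean in every group but WT, at 80.2 CPM per kb in libraries with the WT+ZnO NPs label (41.4 to 117), 23.7 in KO (5.24 to 40.8) and 38.3 in KO+ZnO NPs (7.82 to 69). In KO and KO+ZnO NPs it overlapped Gata3, which followed at 17.3 (13.9 to 19.7) and 23.5 (16.9 to 30.1) and was the higher of the pair in KO replicate 2 and KO+ZnO NPs replicate 3. Hoxc13 came next at 48.7 CPM per kb with the WT+ZnO NPs label (37.5 to 63.1), overlapping Dlx3, and then Gata3 at 32.2 (28.3 to 37.4) and Msx2 at 24.3 (16.5 to 29.4), which overlapped each other. In WT the order was led by Gata3 at 9.73 CPM per kb (7.9 to 11), then Bmp4 at 5.65 (4.14 to 6.62) and Dlx3 at 3.58 (2.42 to 5.14), the latter pair overlapping. Fgf5 was last in WT (0.0564 CPM per kb), WT+ZnO NPs (2.71) and KO+ZnO NPs (0.472), and Lef1 had the lowest mean in KO (0.871). There it overlapped Fgf5 (0.0321 to 2.55), which was lower than Lef1 in replicates 2 and 3, and Shh, lower in replicates 1 and 2. The ligands Shh and Wnt10b, at 13.0 and 9.31 CPM per kb with the WT+ZnO NPs label, overlapped each other there.

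Across the 12 libraries the log2 levels of the 10 genes ran together, with a median Pearson r of 0.902 over the 45 pairs (0.678 to 0.994, Msx2 with Hoxc13 highest). Over the 9 libraries other than WT the median was 0.788 (0.437 to 0.991). These values describe points that share groups and libraries. Among all tested genes, the one most like Shh over the 12 libraries was Mfsd2b (r = 0.98), followed by the pigment genes Tyr (0.98) and Pmel (0.976). Msx2 and Hoxc13 were nearest to each other (0.994), and both then to Nudt10 (0.991 and 0.988). Nearest were Mex3a to Lef1 (0.986), Msi1 to Wnt10b (0.985), 1700034H15Rik to Dlx3 (0.98), Upk1b to Foxn1 (0.976), Fam227a to Fgf5 (0.966), Esrp2 to Gata3 (0.976) and Sox21 to Bmp4 (0.948).

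The other genes of these pathways were counted by list, and a few genes stand in more than 1 list. In WT+ZnO NPs against WT the median log2 fold change was 1.23 for SHH signalling, 1.1 for WNT, 0.63 for BMP, 0.21 for FGF, 0.22 for EDA and 1.68 for other transcription factors of the follicle, beside 0.06 over all genes. In KO against WT these medians were 0.71, 0.62, 0.49, 0.11, 0.2 and 1.01 in the same order, beside 0.01 over all genes, and in KO+ZnO NPs against KO they lay between -0.12 (FGF) and 0.7 (EDA). The counts of each list, markers included, stand beside the shares of all genes called higher and lower. These were 20.8% and 22.1% in WT+ZnO NPs against WT and 4.61% and 3.58% in KO against WT. They were 6.57% and 8.09% in KO+ZnO NPs against KO, and 5.08% and 3.59% in the interaction. In KO+ZnO NPs against KO the counts of the SHH, BMP and other transcription factor lists are near these shares, or under them, and are no result about the lists. The SHH count in KO against WT is near its share too.

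Of 14 other genes of SHH signalling, 9 were called higher and 1 lower in WT+ZnO NPs against WT, 1 was called higher in KO against WT and 1 lower in KO+ZnO NPs against KO. Hhip, a SHH-binding protein that SHH itself induces, rose most, from 0.772 to 2.29 CPM in WT to 18.5 to 38.2 CPM with the WT+ZnO NPs label (4.31 ± 0.73, adjusted p = 0.00107), and Cdon, a SHH co-receptor, fell (-1.17 ± 0.29, adjusted p = 0.00765). Cdon fell as well with ZnO NPs in KO (-1.17 ± 0.29, adjusted p = 0.0249). Boc, another co-receptor, was the gene called in KO (0.76 ± 0.19, adjusted p = 0.0384). Gli1 and Ptch1, direct SHH targets named for that role after their values were seen, rose in WT+ZnO NPs against WT (3.44, adjusted p = 0.000543; 1.56, adjusted p = 0.0134), and in KO against WT stood at 1.68 (adjusted p = 0.0578) and 1.02 (adjusted p = 0.151).

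Of 27 tested genes of WNT signalling, 18 were called higher and 0 lower in WT+ZnO NPs against WT, 9 higher in KO against WT, and 3 higher in KO+ZnO NPs against KO. Wif1, a secreted WNT inhibitor, went from 3.65 to 8.06 CPM in WT to 54.9 to 116 CPM with the WT+ZnO NPs label (4.07 ± 0.49, adjusted p = 0.000143). Lgr5, an R-spondin receptor of follicle stem cells and the lower follicle, was the largest rise in KO against WT, with KO at 46.0, 25.7 and 41.3 CPM and WT at 9.78, 5.16 and 7.65 CPM (2.32 ± 0.27, adjusted p = 0.00124). Its interaction was -3.38 ± 0.37 (adjusted p = 0.00169). Lgr6, a relative of Lgr5, rose with ZnO NPs in KO (1.75 ± 0.4, adjusted p = 0.0206), and Tcf7l2, a partner of beta-catenin like Lef1, was the gene of this list called lower in KO+ZnO NPs against WT+ZnO NPs (-0.66 ± 0.12, adjusted p = 0.0304).

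Of 23 tested genes of BMP signalling 12 were called higher and 2 lower in WT+ZnO NPs against WT, 5 higher in KO against WT, and 1 higher and 2 lower in KO+ZnO NPs against KO. Bambi, a decoy receptor, rose in WT+ZnO NPs against WT (3.02 ± 0.77, adjusted p = 0.0095) and Grem1, a secreted BMP inhibitor, fell (-1.95 ± 0.37, adjusted p = 0.00217). Bmpr1b, a BMP receptor, rose in KO (1.67 ± 0.36, adjusted p = 0.021). With ZnO NPs in KO, Fst, an activin and BMP binding protein, rose (0.94 ± 0.2, adjusted p = 0.0153). Smad7, an inhibitory SMAD, had an interaction of -1.85 ± 0.31 (adjusted p = 0.00974).

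FGF signalling had 5 genes called higher and 2 lower of 16 tested in WT+ZnO NPs against WT, beside 20.8% and 22.1% of all genes, with 4 higher and 1 lower in KO against WT and 2 higher and 1 lower in KO+ZnO NPs against KO (6.57% and 8.09% of all genes). The counts in both ZnO NP comparisons are near the shares of all genes, or under them, and are no result about the list. Etv4, an ETS factor induced by FGF, rose in WT+ZnO NPs against WT (3.11 ± 0.37, adjusted p = 0.00014), in KO against WT (1.43 ± 0.35, adjusted p = 0.034) and in KO+ZnO NPs against KO (1.4 ± 0.35, adjusted p = 0.0257). Fgfr1, an FGF receptor, fell with the WT+ZnO NPs label (-0.58 ± 0.14, adjusted p = 0.00664). Fgf7, a dermal papilla ligand, fell in KO against WT (-0.78 ± 0.21, adjusted p = 0.0447), in KO+ZnO NPs against KO (-1.08 ± 0.21, adjusted p = 0.0123) and in KO+ZnO NPs against WT+ZnO NPs (-1.73 ± 0.21, adjusted p = 0.0156). Fgfr2, its receptor, had a negative interaction (-0.99 ± 0.21, adjusted p = 0.0228). Of 6 genes of EDA signalling, 2 were called higher in WT+ZnO NPs against WT, with the receptor Edar rising most (3.72 ± 0.92, adjusted p = 0.00816), and its adaptor Edaradd was the only one called in KO against WT (0.77 ± 0.2, adjusted p = 0.0448) and in KO+ZnO NPs against KO (0.77 ± 0.2, adjusted p = 0.0315).

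Other transcription factors of the follicle gave 20 higher and 1 lower of 29 tested in WT+ZnO NPs against WT, 9 higher in KO against WT, 1 higher and 1 lower in KO+ZnO NPs against KO and 9 lower in the interaction. Foxe1, a forkhead factor of the follicle, had the largest fitted rise in both comparisons with WT (9.52 ± 1.7, adjusted p = 0.00144; 7.67 ± 1.66, adjusted p = 0.0218), from 0.0839, 0.0351 and 0 CPM in WT to 15.9 to 52.1 CPM with the WT+ZnO NPs label, and from near 0 its fold depends on the prior count. Nfatc1, a factor of resting bulge stem cells, was the gene that fell (-0.78 ± 0.2, adjusted p = 0.00975). Barx2 rose with ZnO NPs in KO (0.93 ± 0.25, adjusted p = 0.0337). In Dlx3's own family, named after its values were seen, Dlx1 and Dlx2 rose in WT+ZnO NPs against WT (8.11, adjusted p = 0.00065; 7.67, adjusted p = 0.000938) and in KO against WT (5.13, adjusted p = 0.0304; 4.71, adjusted p = 0.0391), and Dlx4 rose in the first (6.1, adjusted p = 0.00197) and was not called in the second (3.02, adjusted p = 0.108). Of the 19 hair shaft and inner root sheath products, 16 were called higher in WT+ZnO NPs against WT, 9 in KO against WT and 0 in KO+ZnO NPs against KO, and Krt72, Krt33b, Krt34 and Krt81 were at 0 in every WT library. Krt27, an inner root sheath keratin, had 1459, 2.25 and 336.4 CPM in the KO libraries and 0.1404 to 0.3357 CPM in WT (11.18 ± 2.44, adjusted p = 0.0226).

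**Figure D4:**
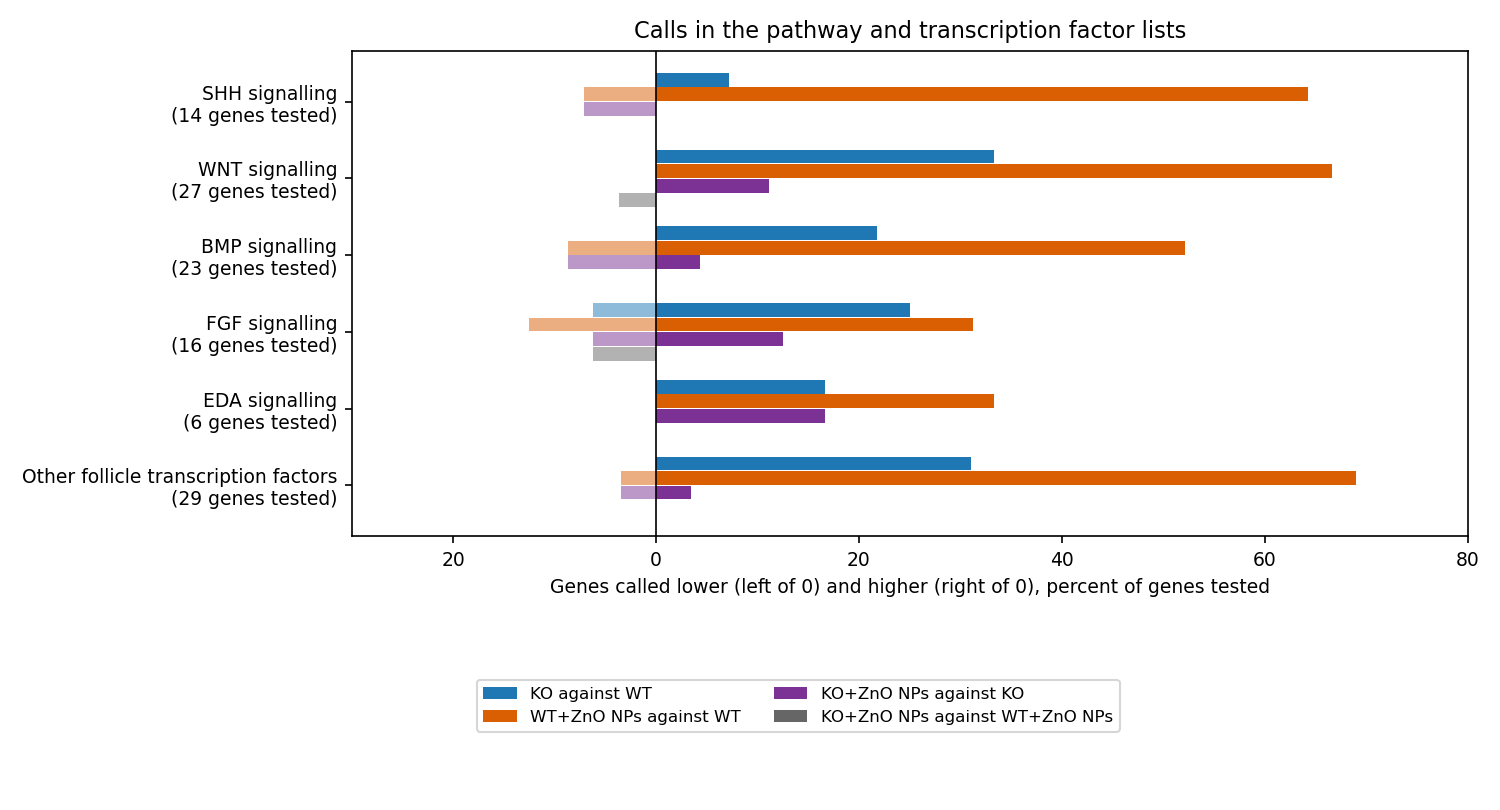
Percent of the tested genes called in the SHH, WNT, BMP, FGF and EDA signalling lists and the list of other follicle transcription factors, higher (right of 0) or lower (left, paler) in 4 comparisons. Bars for WT+ZnO NPs against WT are the longest on the right in each of these 6 lists, those for KO against WT are shorter, and those for KO+ZnO NPs against WT+ZnO NPs are absent or left of 0.

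Other cell types moved with the same groups. The 6 leukocyte markers summed to 2530 to 3280 CPM in WT and 173 to 367 CPM with the WT+ZnO NPs label, all 6 called lower, and to 1390 to 2620 CPM in KO and 321 to 690 CPM with the KO+ZnO NPs label, again 6 of 6 called lower. The 5 suprabasal keratinocyte markers summed to 3980 to 7250 CPM in WT and 920 to 1400 CPM with the WT+ZnO NPs label, with 4 of 5 lower. Proliferation markers were called higher for 8 of 10 in WT+ZnO NPs against WT and 6 of 10 in KO+ZnO NPs against KO, summing to 485 to 699, 779 to 1570, 376 to 622 and 854 to 1060 CPM in WT, WT+ZnO NPs, KO and KO+ZnO NPs. Of 9 melanocyte markers 8 were higher and 1 lower in WT+ZnO NPs against WT (62.5 to 85.0 CPM summed in WT, 438 to 1300 with the label) and 4 were higher in KO against WT (141 to 305 CPM). Among 11 dermal papilla markers 6 were called higher in WT+ZnO NPs against WT and 3 in KO against WT, summing to 93.9 to 113, 181 to 299, 140 to 230 and 147 to 220 CPM in the same order of groups. All 5 sebocyte markers were called higher in KO+ZnO NPs against KO (summed 80.9 to 202 CPM in KO, 493 to 2170 with the label) and 3 of 5 in WT+ZnO NPs against WT, and all 5 endothelial markers were called lower in WT+ZnO NPs against WT. Bulge and secondary germ markers went both ways, with 5 of 9 higher and 2 lower in WT+ZnO NPs against WT and 2 higher and 1 lower in KO against WT. Adipocyte markers summed to 1630 to 2460 CPM in WT and 227 to 534 CPM with the WT+ZnO NPs label, with 3 of 5 called lower, and of 6 dermal fibroblast markers 1 was called higher and 3 lower in that comparison. Skeletal muscle markers gave 0 calls of 6 there, with 1 lower in KO against WT and 1 higher in KO+ZnO NPs against KO, and 1 of 5 basal keratinocyte markers was called higher in WT+ZnO NPs against WT. No marker of these lists was at 0 in a whole group, and their part in the values of the 10 genes was not tested.

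**Figure D5:**
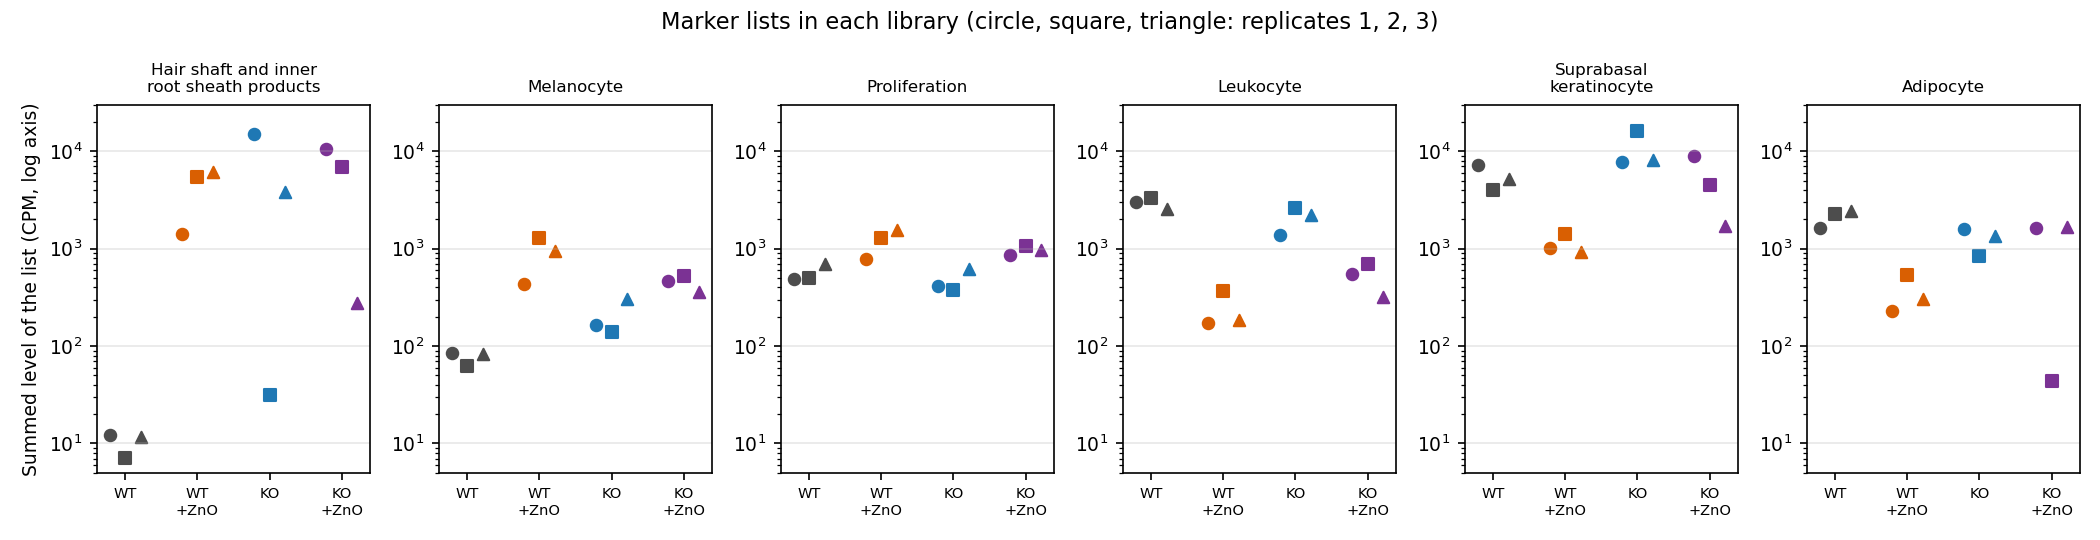
Summed level in CPM (log axis) of 6 marker lists in every library of the 4 groups. Shaft and sheath products span from 31.8 to 14900 CPM within KO, and leukocyte markers are lower in both ZnO NP groups than in WT and KO.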

How the data were processed

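Per the labels, RNA came from 12 skin samples. The authors aligned reads (HISAT2 2.0.5 to mm10 in the submitters' processing notes; the study's methods name other tools) and deposited a table of raw counts per gene, with no normalization and no replicates pooled. Of 52636 gene identifiers 52489 matched a symbol in GENCODE M21. Counts were fitted with edgeR 4.0.16 (R 4.3.3): TMM scaling, filterByExpr (18822 genes kept), 1 design with 4 groups, quasi-likelihood F test, Benjamini-Hochberg adjustment over all genes, call at 0.05. SEs were derived from the log2 fold change and its F, and are approximate. Log2 levels used a prior count of 2. The script was tested on simulated counts. Replicates are separate mice; within a group, counts differed beyond sampling noise (chi-square over degrees of freedom from 40.8 to 178), so none was a repeated library. Depth was 21076320 to 28867802 counts, and a count of 0 allows up to 3 counts, a limit that covers counting error only. Alternatives were DESeq2 1.42.0, RLE or no scaling factors, only the groups compared, no filter, at least 10 counts in every library, a replicate block, Y-linked transcripts (over 10 CPM) as a covariate, each library left out, and, added after seeing the data, the KO and KO+ZnO NPs libraries with Y-linked transcripts left out. Named genes beside the 10 were the called gene of each list with the largest rise and fall, at a mean of at least 1 CPM and without overlap of the groups, and the 3 genes most correlated with each member; exceptions are marked, and 1 gene that the rule picked is not reported here. Members and lists were chosen with earlier results of these data known.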

Additional observations from a re-analysis of the deposited data

Results flagged for a closer look

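For 7 of the 10 genes the change with ZnO NPs differed between KO mice and the libraries labelled WT, by a test of the difference itself (the interaction in edgeR's quasi-likelihood test, adjusted over 18822 genes). Over all tested genes 3.59% were called lower and 5.08% higher. Shh and Fgf5, among the 7, were kept by the filter only through the ZnO NP groups. The count ran from 1 to 7 over the leave-one-out fits. The difference was -6.2 for Shh (adjusted p = 0.0408), -4.31 for Lef1 (adjusted p = 0.0187), -5.7 for Msx2 (adjusted p = 0.0236) and -6.43 for Hoxc13 (adjusted p = 0.0148), on the log2 scale. It was -2.51 for Wnt10b (adjusted p = 0.039), -6.7 for Fgf5 (adjusted p = 0.0474) and -1.29 for Gata3 (adjusted p = 0.0322). With Y-linked transcripts as a covariate all 7 differences stayed negative, at -6.26 for Shh, -3.57 for Lef1, -3.93 for Msx2, -4.69 for Hoxc13, -2.38 for Wnt10b, -3.88 for Fgf5 and -0.95 for Gata3, and none had an adjusted p below 0.05. With 3 mice in each group, single libraries were not tested as outliers.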

How the results depend on the processing

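The count of the 10 genes called in KO against WT was 5, and became 9 with DESeq2, 2 with the Y-linked covariate, 2 with the KO and KO+ZnO NPs libraries that hold Y-linked transcripts left out (chosen after seeing the data), and 0 to 7 with each library left out in turn. In WT+ZnO NPs against WT the 10 calls fell to 6 with the Y-linked covariate and stayed at 10 to 10 over the leave-one-out fits. In KO+ZnO NPs against WT+ZnO NPs DESeq2 called 1. For the interaction the 7 calls became 0 with the Y-linked covariate, 4 with those same libraries left out and 1 to 7 over the leave-one-out fits. The cause was not tested. In KO+ZnO NPs against KO the count was 0 in every fit, with 5 uncalled genes changing sign when 1 library was left out: log2 fold changes ran from -2.56 to 0.44 for Fgf5, -0.72 to 1.13 for Hoxc13, -0.68 to 1.0 for Foxn1, -0.7 to 1.37 for Msx2 and -0.05 to 1.33 for Dlx3. Foxn1 in KO+ZnO NPs against WT+ZnO NPs stood at 0.34 with the Y-linked covariate. Deviations of same-numbered libraries from their group means correlated at -0.343 to 0.429 (4 of 18 over 0.1), and those of other pairs at -0.414 to 0.366 (5 of 36). The highest was KO replicate 1 with KO+ZnO NPs replicate 1, which share Y-linked transcripts. These values show no clear pairing by number and cannot exclude one, so the main fit used none. With the replicate block 4, 10, 0, 0 and 5 genes were called in KO against WT, WT+ZnO NPs against WT, KO+ZnO NPs against KO, KO+ZnO NPs against WT+ZnO NPs and the interaction. Scaling by library size alone moved the median of all genes in WT+ZnO NPs against WT from 0.06 to 0.16 and in the interaction from 0.02 to -0.13, and no gene of the 10 changed direction under it. Shh and Fgf5 had too few counts to be tested under the filter of at least 10 counts in every library, and with at most 8 WT counts their folds are the least precise.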
